A study of Sus scrofa with 6 samples.

Results

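The spleen and the lymph node of wild-type pigs at 3 months of age were compared, 2 of the 6 RNA sequencing libraries of the series. The pair was picked by its labels and not by a measured value, but with earlier results of these data known. The gene lists used below were also drawn up with those results known. The remaining libraries are the wild-type thymus and the lymph node, spleen and thymus of littermates with a biallelic RAG2 knockout, also at 3 months. Each organ and genotype has 1 library, and the labels say neither whether the wild-type spleen and lymph node came from the same pig, nor which lymph node was taken, nor how many animals went into a library. No difference therefore has a replicate check and no p-value is given. The wild-type pair carries no edited allele. The knockout pair serves below only as the other pair of libraries from the same organs.

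The spleen filters blood. Its red pulp, held in a network of macrophages, venous sinuses and contractile stroma, removes aged red cells and recycles their iron, and its white pulp holds T cells, B cells and follicles. The lymph node filters lymph that arrives through lymphatic vessels, and naive lymphocytes enter it from the blood through high endothelial venules. In pigs the node is inverted, with follicles toward its centre, and most lymphocytes leave it directly into the blood.

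Values are CPM, fragments scaled to a total of 1000000 over the 4122 listed genes, from 2084768 fragments in spleen and 1922562 in lymph node. These tables hold part of the pig's genes, so the totals are not sequencing depth. A gene counted as measured with at least 10 fragments in either library, which 2672 genes reached. It was called higher or lower in spleen when the log2 ratio of spleen over lymph node, with 1 CPM added to each, was at least 1 in size. A gene with 10 or more fragments in only 1 library could therefore not be called toward the other organ, which shapes the counts per list and family. Folds are CPM ratios with 95% Clopper-Pearson intervals in brackets. With 1 library a side these cover counting error only, not variation between animals or preparations. Sequenced fragments without molecular identifiers are not independent molecules, so the intervals may be too narrow even for counting error. Where a library had 0 fragments of a gene, 3 fragments were put in their place and the fold is written as at least that size. Fragment pairs are given spleen first. Values in brackets without a unit, such as -0.22, are log2 ratios.

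The organ labels were checked against markers of each organ. The red-cell globin gene HBB held 1.87% of the spleen fragments and 0.0180% of the lymph node fragments. PROX1, the regulator of lymphatic endothelial identity, had 32 and 189 fragments, and the lymphatic and T-zone chemokine CCL21 had 259 and 1843. Thymic genes were near the floor in both, with 19 and 11 fragments of RAG-1, 4 and 0 of RAG2 and 0 and 1 of PTCRA, against 31145, 2609 and 933 in the wild-type thymus. Of 10 spleen markers only 3 are listed, and 2 of these did not follow the label: VSIG4 was higher in lymph node and CD163 stood at 0 in all 6 libraries. Of 8 lymph node markers 4 are listed, and the venule gene DARC did not separate the organs (234 and 251 fragments). Spleen regulators such as TLX1 and lymphatic genes such as LYVE1 were not analysed here. A value of 0 in every library was listed for 774 genes, among them the widely expressed HMOX1 and SPARC and the B-cell gene BTK. Such a 0 may therefore be a failed estimate.

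The wild-type spleen was marked by smooth muscle, iron and haem, and complement C1q genes, and by part of the red-cell genes, HBB above all. The lymph node was marked by T-cell, B-cell and lymphatic endothelial genes. It was also marked by chemokines and by a set of C-type lectins, both families defined after their values were seen. Of the measured genes 309 were higher in spleen (11.6%) and 327 lower (12.2%), and the median log2 ratio was -0.12. The difference reached 4-fold for 139 higher and 137 lower genes and 16-fold for 28 and 30. With fragments taken as independent, counting error was rarely the limit, since the interval left out equal levels for 302 of the higher and 323 of the lower genes. In bulk RNA of an organ, fewer cells of a type and less RNA per cell cannot be told apart. The plot of levels in the 2 organs shows both arms.

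**Figure D1:**
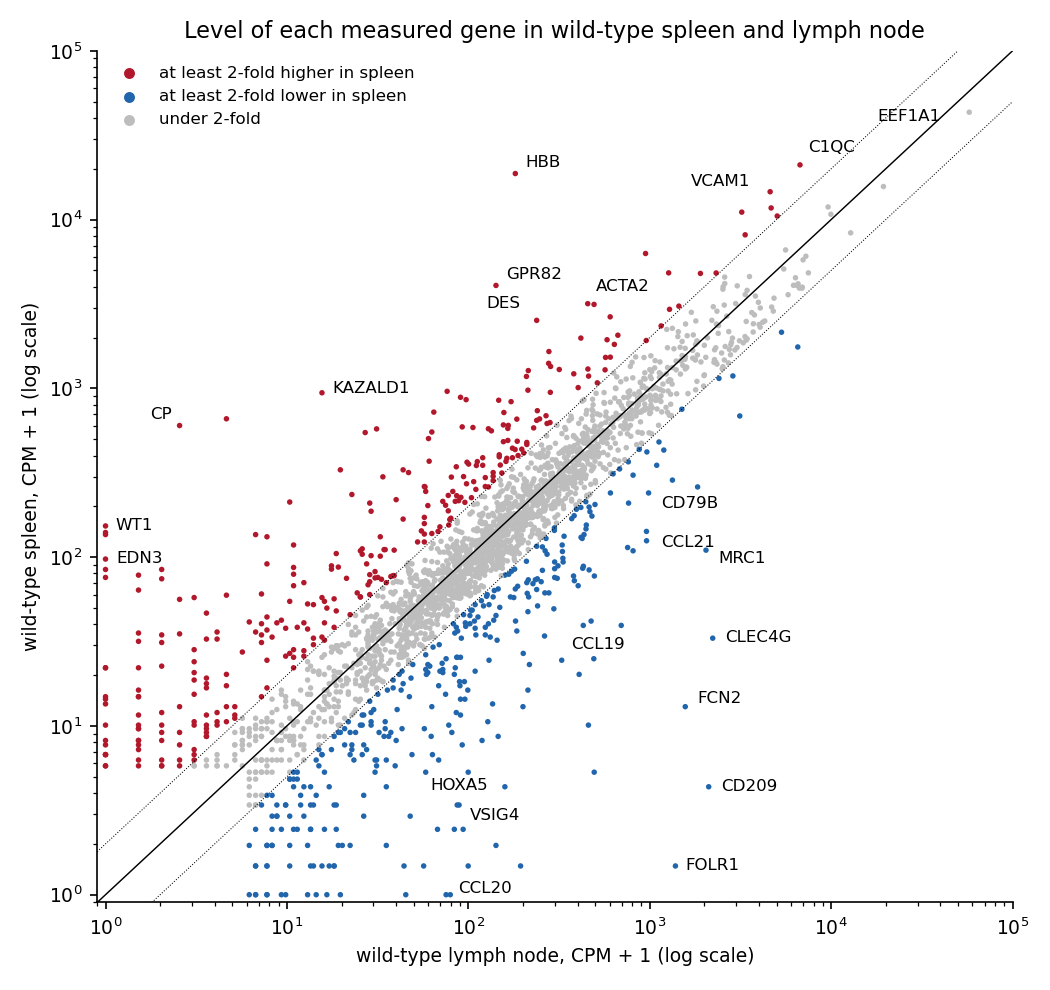
Level of each of the 2672 measured genes in wild-type lymph node (horizontal) and wild-type spleen (vertical), both as CPM + 1 on log scales, 1 library each. The solid line marks equal levels and the dotted lines 2-fold; HBB, CP and WT1 lie far above it and FOLR1, CD209 and FCN2 far below.

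Iron genes and part of the red-cell genes lay on the spleen side. HBB, the beta chain of haemoglobin (chromosome 9, 4800683 to 4801941 in Sscrofa11.1), had 39042 fragments in spleen and 347 in lymph node. That is 18727 against 180.5 CPM, or 104-fold higher in spleen (93.4 to 116). The erythropoietin receptor EPOR was 3.14-fold higher (2.07 to 4.88) and FECH, the last enzyme of haem synthesis, 3.00-fold higher (2.47 to 3.65). Among 8 measured red-cell genes 4 were higher and 1 lower in spleen, with a median log2 ratio of 0.87, under the threshold. HBB made up 18727 of the 19294 CPM summed over the listed red-cell genes in spleen. The lower one was GATA1, the master regulator of the red-cell lineage, at 5 and 12 fragments, with an interval that includes equal levels (2.60-fold, 0.853 to 9.43). HBB transcript also measures blood held in the tissue, and its part in the other differences was not tested.

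Of 11 measured genes for iron and haem handling 9 were higher in spleen and none lower, with a median log2 ratio of 1.49. CP, the ferroxidase ceruloplasmin (chromosome 13, 89396713 to 89463540), had 1253 fragments in spleen and 3 in lymph node, a ratio of 385 (131 to 1870.2). It had the highest log2 ratio of all measured genes with at least 50 fragments in either library. SLC11A1, the phagosomal metal transporter NRAMP1, had 70 and 2 fragments (32.3-fold higher, 8.61 to 272). The plasma iron carrier transferrin, TF, had 281 and 11 (23.6-fold higher, 13 to 47.7), and haptoglobin, HP, which binds free haemoglobin, had 70 and 12 (5.38-fold higher, 2.89 to 10.9). All 4 are thus genes with little or almost no signal in lymph node.

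The ferritin subunits that store iron were abundant in both organs and still differed. FTL stood at 11711 CPM in spleen and 4666 in lymph node (2.51-fold higher, 2.45 to 2.57), and FTH1 at 4794 and 1901 (2.52-fold higher, 2.43 to 2.62). The light and heavy chains therefore differed by nearly the same fold. NCOA4, the receptor that delivers ferritin for breakdown, was 2.03-fold higher (1.93 to 2.14) with a log2 ratio of 1.02, close to the threshold. The siderophore-binding LCN2 was 5.10-fold higher. Neither the ferric reductase CYBRD1 (0.73) nor the haem exporter FLVCR1 (-0.23) was called. HMOX1, the enzyme that opens haem, is listed at 0 in all 6 libraries.

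Smooth muscle genes were higher in spleen almost throughout. Of 12 measured members 11 were higher in spleen and none lower, with a median log2 ratio of 2.50. CNN1, calponin (chromosome 2, 70183370 to 70190756), had 1999 fragments in spleen and 145 in lymph node and was 12.7-fold higher (10.7 to 15.2). The intermediate filament desmin, DES (chromosome 15, 121428539 to 121435426), had 5268 and 455 and was 10.7-fold higher (9.70 to 11.8). Myosin light chain MYL9 was 8.90-fold higher, the actin ACTA2 6.99-fold, the actin-bundling TAGLN 6.39-fold, smoothelin SMTN 5.66-fold and the tropomyosin TPM1 5.09-fold. The genes just named thus differed by 5-fold or more, and not every called member is named. The 1 measured member without a call was RGS5, a gene of pericytes, at 360 and 324 fragments (0.03). The cardiac actin ACTC1, which was listed with striated muscle, was also higher, at 274 and 13 fragments (19.4-fold, 11.2 to 37), while RYR1, the calcium channel of skeletal muscle, was not called (-0.73).

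Receptors and ligands of the autonomic and vasoactive systems, taken as a family after their values were seen, differed in both directions. Of 12 measured members 6 were higher in spleen and 3 lower. EDN3, the peptide endothelin 3 (chromosome 17, 59418667 to 59448382), had 174 fragments in spleen and 0 in lymph node, at least 53.5-fold higher. Its receptor EDNRB went the other way, at 151 and 409 fragments (2.94-fold lower in spleen, 2.43 to 3.56). NPY2R, a receptor of the sympathetic co-transmitter neuropeptide Y, had 156 fragments in spleen and is listed at 0 in both lymph node libraries. FPKM per count has no value for it in the lymph node table, so that 0 may be a failed estimate and no fold is given. The related NPY1R had 33 and 72 fragments (-1.19). The adrenergic receptors ADRB3 (64 and 1 fragments, 4.38), ADRB1 (122 and 7, 3.68), ADRA1A (145 and 22, 2.50) and ADRA2B (40 and 7, 2.12) were higher in spleen. ADRA2A was lower, at 82 and 247 fragments (-1.68). In the knockout pair EDN3 had 149 fragments in spleen and 1 in lymph node.

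Macrophage genes split into a spleen set and a lymph node set. Of 19 measured members 9 were higher and 6 lower in spleen, with a median log2 ratio of 0.37. On the spleen side stood the 3 chains of C1q, the recognition molecule of the classical complement pathway, which lie side by side on chromosome 6 (80586259 to 80606076 from C1QA to C1QB). C1QA had 11062 CPM in spleen and 3213 in lymph node (3.44-fold higher, 3.35 to 3.54). C1QB had 1939 and 580.5 (3.34-fold, 3.13 to 3.57) and C1QC 21076 and 6729 (3.13-fold, 3.07 to 3.19). The 3 chains thus kept nearly the same organ ratio. In the knockout pair none of them was called (C1QA 0.64, C1QB 0.89 and C1QC 0.87). Per length of transcript, C1QC at 14988 FPKM and C1QA at 11563 FPKM were among the most abundant genes of the spleen library.

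The other macrophage genes of the spleen side were nuclear, surface and secreted proteins. NR1H3, the sterol-sensing nuclear receptor LXR alpha, was 5.95-fold higher (5.43 to 6.53). The calcium-binding AIF1 had 2806 and 545 fragments (2.24), AXL, a receptor for dying cells, 1166 and 255 (2.07), and the scavenger receptor MSR1 1263 and 298 (1.96). TLR4, the endotoxin receptor, was higher at 1.42 and CD5L, a secreted macrophage protein, at 1.18. Outside the macrophage list, the fat and lipid regulator PPARG was 8.89-fold higher in spleen (7.35 to 10.8). It belongs to the adipocyte list, whose hormone gene ADIPOQ had 5 and 17 fragments. Which cells expressed PPARG was not tested.

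The lymph node set was led by other scavenger and lectin receptors. MRC1, the mannose receptor (chromosome 10, 44107926 to 44226734), had 228 fragments in spleen and 3922 in lymph node, 18.7-fold lower in spleen (16.3 to 21.4). MARCO, a scavenger receptor of marginal zone and sinus macrophages, had 541 and 3526 (7.07-fold lower, 6.45 to 7.75). VSIG4, the complement receptor of resident macrophages, had 5 and 165 (35.8-fold lower, 15 to 112). Each of these 3 receptors was also lower in the spleen of the knockout, at -4.37, -3.99 and -4.80. Of the 19 measured macrophage genes 8 were called the same way in both pairs. CD14, the endotoxin co-receptor, was 3.53-fold lower (2.98 to 4.20) but was not called in the knockout pair (0.13). SIGLEC-1, the sialic acid receptor of sinus and metallophilic macrophages (-1.01), and lysozyme, LYZ (-1.04), were called at the margin. APOE (-0.93) and TLR2 (-0.81) were not called, and neither were the lysosomal protease CTSB (0.37) nor the phosphatase ACP5 (0.15).

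Wide margins separated the organs in genes of C-type lectins, receptors that bind sugars on microbes and cells. CD209, the lectin DC-SIGN (chromosome 2, 71394414 to 71397711), had 7 fragments in spleen and 4060 in lymph node, 629-fold lower in spleen (305 to 1565). CLEC4G, a lectin of liver and lymph node sinus endothelium, lies close to it on the same chromosome (71433406 to 71436570) and had 67 and 4271 fragments, 69.1-fold lower (54.3 to 89.4). Within the lymph node library the 2 stood at 2158 and 2005 FPKM. Of 6 measured members of this family, also defined after the values were seen, 5 were lower in spleen and none higher. The others that were lower were MRC1, the dendritic cell receptor LY75 (-1.89) and the inhibitory CLEC12A (3 and 24 fragments, -2.47), while CLEC2B was not called (0.20).

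The ficolins, lectins that start the lectin pathway of complement, went in opposite directions although they are neighbours on chromosome 1. FCN2 (274106276 to 274111970) had 25 fragments in spleen and 3015 in lymph node, 131-fold lower in spleen (88.4 to 202). FCN1 (274125666 to 274132917), a ficolin of monocytes, had 659 and 88, 6.91-fold higher (5.52 to 8.73). MASP2, the protease that ficolins activate, followed FCN2, at 16 and 278 fragments (18.8-fold lower, 11.4 to 33.4). C7, a component of the membrane attack complex, was high in spleen, at 6292 and 947 CPM (6.64-fold higher, 6.32 to 6.98). C4 was 3.72-fold lower, at 3662 and 12579 fragments, and C3 was just under the threshold (-0.94). Of 20 measured complement and acute phase genes 6 were higher and 4 lower, with a median log2 ratio of -0.50. MBL1 and MBL2, lectins of the same pathway, are listed at 0 in both organs.

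Lymphocyte genes were lower in spleen. Of 23 measured T-cell genes 20 were lower and none higher, with a median log2 ratio of -1.98. CD8B, the beta chain of the CD8 co-receptor, had 20 fragments in spleen and 244 in lymph node, 13.2-fold lower in spleen (8.38 to 22). The CD8 alpha chain CD8A (105 and 461 fragments, 4.76-fold lower) differed less than CD8B, and CD4 (147 and 482) was 3.56-fold lower. The T-cell factors LEF1 and BCL11B were 5.57-fold and 5.49-fold lower, and the co-stimulator ICOS 5.19-fold lower. CCR7, the chemokine receptor that guides naive cells into lymph nodes, was 4.96-fold lower (4.18 to 5.93).

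The chains of the T-cell receptor complex were lower or just missed the call. CD3G had 151 and 448 fragments (3.22-fold lower, 2.67 to 3.89) and CD3D 145 and 402 (3.01-fold lower, 2.48 to 3.66). CD3E had 489 and 897 (1.99-fold lower, 1.78 to 2.23) and just missed the call at -0.99, and CD247, the zeta chain, stood at -0.86. CD96, shared with natural killer cells, was not called either (103 and 77 fragments, 0.30). These 3 were the measured T-cell genes without a call.

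B-cell genes were lower in spleen as well. Of 9 measured members 7 were lower in spleen and none higher, with a median log2 ratio of -1.38. CD79B, a signalling chain of the B-cell receptor (chromosome 12, 15052966 to 15056441), had 498 and 1891 fragments and was 4.12-fold lower (3.73 to 4.55). Its partner chain CD79A had 215 and 520 (2.62-fold lower, 2.23 to 3.09). FCER2, the low-affinity IgE receptor of follicular cells, was 3.67-fold lower and the surface protein MS4A1 2.78-fold lower. CD40 was not called (-0.94). The list's 2 recombinase genes, RAG-1 and RAG2, were at the low counts given above. Whether the T-cell and B-cell medians differ was not tested.

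Other lymphocyte programmes gave fewer calls. Of 8 germinal centre genes 3 were lower, among them GCET2 (3 and 128 fragments, 46.3-fold lower, 15.5 to 227), a signalling adaptor of germinal centre B cells, while S1PR2, which confines cells to the follicle, was not called (0.60). Among 5 plasma cell genes PIGR alone was called (5 and 34 fragments, 7.37-fold lower), and it is better known as the antibody transporter of epithelium. XBP1, the secretory transcription factor, was near equal (-0.13). Of 8 cytotoxic genes 2 were higher in spleen and none lower: NKL, the lytic peptide NK-lysin (82 and 12 fragments, 6.30-fold higher, 3.42 to 12.7), and TYROBP, a signalling adaptor shared with myeloid cells (2.68-fold higher, 2.41 to 2.98). None of 16 genes of dividing cells was called (median -0.60), among them MKI67 (-0.56).

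**Figure D2:**
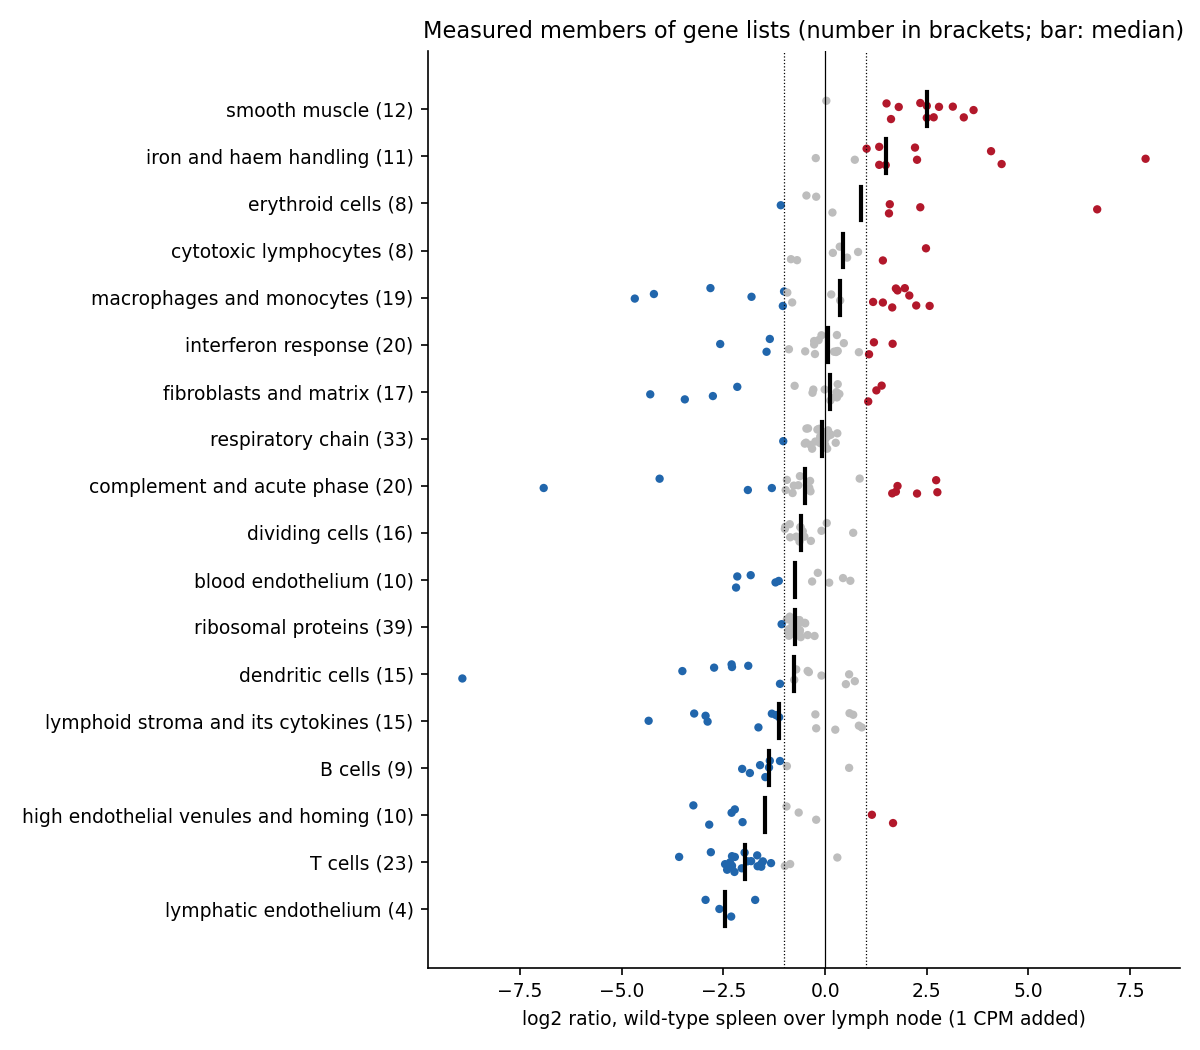
Log2 ratio of wild-type spleen over wild-type lymph node for the measured members of 18 gene lists, 1 point a gene, with the number of members in brackets and a bar at the median. Red points are at least 2-fold higher and blue points at least 2-fold lower in spleen; smooth muscle lies at the right (median 2.50) and lymphatic endothelium at the left (-2.46).

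Genes of lymphatic and blood vessels were lower in spleen or not called. All 4 measured lymphatic endothelial genes were lower, with a median log2 ratio of -2.46. CCL21 (chromosome 10, 32093783 to 32094482) was 7.72-fold lower (6.77 to 8.82), PROX1 6.40-fold (4.39 to 9.63), the vessel growth factor ANGPT2 5.02-fold (4.26 to 5.94) and CCRL1, the scavenger of CCL19 and CCL21, 3.41-fold (2.39 to 4.95). Of 10 blood endothelial genes 5 were lower and none higher. They included the junction proteins PECAM1 (1429 and 6023 fragments, 4.57-fold lower) and CLDN5 (97 and 407, 4.55-fold lower), the sialomucin CD34 (3.59-fold lower) and the clotting factor carrier VWF (2.34-fold lower). Endoglin, ENG, was not called (0.62).

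Genes by which lymphocytes enter tissue from blood split by family. The selectins SELP (46 and 416 fragments, 9.81-fold lower, 7.22 to 13.6) and SELE (17 and 70, 4.47-fold lower) were lower in spleen, as was the gut-homing receptor CCR9 (16 and 118, 8.0-fold lower). The integrin ligands VCAM1 and ICAM-1 were higher. VCAM1 (chromosome 4, 117496914 to 117511211) was among the 5 genes with the most fragments in spleen, at 14609 and 4606 CPM (3.17-fold higher, 3.10 to 3.25), and ICAM-1 had 907 and 376 fragments (1.15). Of 10 measured members of this list 2 were higher and 5 lower. DARC, which marks high endothelial and other venules, was not called (-0.22), and MADCAM1 is listed at 0 in both.

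Chemokines that organise lymphoid tissue were lower in spleen. CCL19 (chromosome 10, 32110366 to 32112529), which lies next to CCL21 and shares its receptor CCR7, had 40 and 783 fragments and was 21.2-fold lower (15.4 to 29.9). CCL20, the ligand of CCR6, had 0 and 143, at least 51.7-fold lower, and CXCL14 had 85 and 912, 11.6-fold lower (9.31 to 14.7). The dendritic cell products CCL17 (2 and 41 fragments, 22.2-fold, 5.77 to 189.7) and CCL22 (2 and 23, 12.5-fold, 3.08 to 109) were lower too. Of 15 measured dendritic cell genes 7 were lower in spleen, none higher and 8 not called, with a median log2 ratio of -0.76. Among those not called were XCR1 (104 and 67 fragments, 0.51) and IRF8 (-0.43). As a family chosen after the values were seen, 15 chemokine ligands were measured, of which 10 were lower and none higher (median -2.73). CXCL12, the ligand of CXCR4, was level at 1679 and 1801 fragments (-0.22), and CCL5 was not called (0.54). Among 12 chemokine receptors 1 was higher, the myeloid receptor CCR1 (1737 and 328 fragments, 2.28), and 5 were lower.

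Stromal cytokines and matrix genes were uneven. The alarmin IL33 had 226 and 1554 fragments (7.46-fold lower in spleen, 6.48 to 8.61) and LTB, the lymphotoxin subunit that maintains lymphoid stroma, 727 and 2098 (3.13-fold lower, 2.87 to 3.41). IL7, the survival factor of naive T cells, had 78 and 85 (-0.24). Of 15 genes of lymphoid stroma 8 were lower and none higher, with a median of -1.13. The 3 measured collagen genes differed: COL3A1 had 15686 CPM in spleen and 19413 in lymph node and was not called (-0.31), and COL1A2 had 10489 and 5041 and was 2.08-fold higher (2.03 to 2.13). COL5A1 was lower, at -4.30 by fragments and -2.11 by FPKM. The small proteoglycan LUM (80 and 824 fragments, 11.2-fold lower, 8.87 to 14.2) and the matricellular POSTN (293 and 1841, 6.81-fold lower, 6.02 to 7.73) were lower in spleen, while decorin, DCN, was not called (0.28). Of 17 fibroblast and matrix genes 3 were higher and 4 lower.

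Of 4 measured genes listed as spleen stroma transcription factors 1 was higher and 2 were lower in spleen, with a median of -0.13. WT1, required for spleen formation (chromosome 2, 28411467 to 28456007), had 317 fragments in spleen and 0 in lymph node, at least 97.4-fold higher, and 0 in the wild-type thymus. HOXA5, a homeobox gene, had 5 and 169 fragments (36.7-fold lower, 15.4 to 114). MEF2C, a factor of muscle, endothelium and B cells, was 2.34-fold lower. NR2F2, a nuclear receptor of venous and stromal identity, had a log2 ratio of 0.97 and was not called. WT1 and HOXA5 also separated the knockout organs, with 330 and 24 and with 3 and 407 fragments. In the family of HOX, TBX and MEOX genes, chosen after the values were seen, 3 were measured. Beside HOXA5 these were TBX2, a T-box repressor, at 388 and 54 fragments (6.63-fold higher, 4.97 to 8.98), and the mesodermal homeobox gene MEOX2, at 25 and 383 (16.6-fold lower, 11 to 26).

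Several of the highest and lowest genes stand outside the groups above. FOLR1, folate receptor alpha, had 1 fragment in spleen and 2661 in lymph node, 2886-fold lower in spleen (517 to 114014). Its log2 ratio was the lowest of all measured genes (-9.87). SDCBP2, a syntenin scaffold, had 1 and 372 (403-fold lower, 72.0 to 15975) and the acidic chitinase CHIA 1 and 190 (206-fold lower, 36.5 to 8180.0). The nuclear receptor NR5A2 had 3 and 178 (64.3-fold lower, 21.7 to 315). These are genes with 3 fragments or fewer in spleen. On the spleen side the orphan receptor GPR82 had 8482 and 272 fragments (28.8-fold higher, 25.5 to 32.6) and the secreted protein KAZALD1 1960 and 28 (64.6-fold, 44.5 to 97.4). ARG1, the urea cycle arginase, had 161 and 1 (148-fold higher, 26.3 to 5900.3). The keratin KRT8, from the list of epithelial genes, had 153 and 2 (70.5-fold higher, 19.2 to 588). GPR82 stands out among them by its level, 4069 CPM. The other measured epithelial gene, OCLN, was lower in spleen, at 37 and 72 fragments (-1.04).

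**Figure D3:**
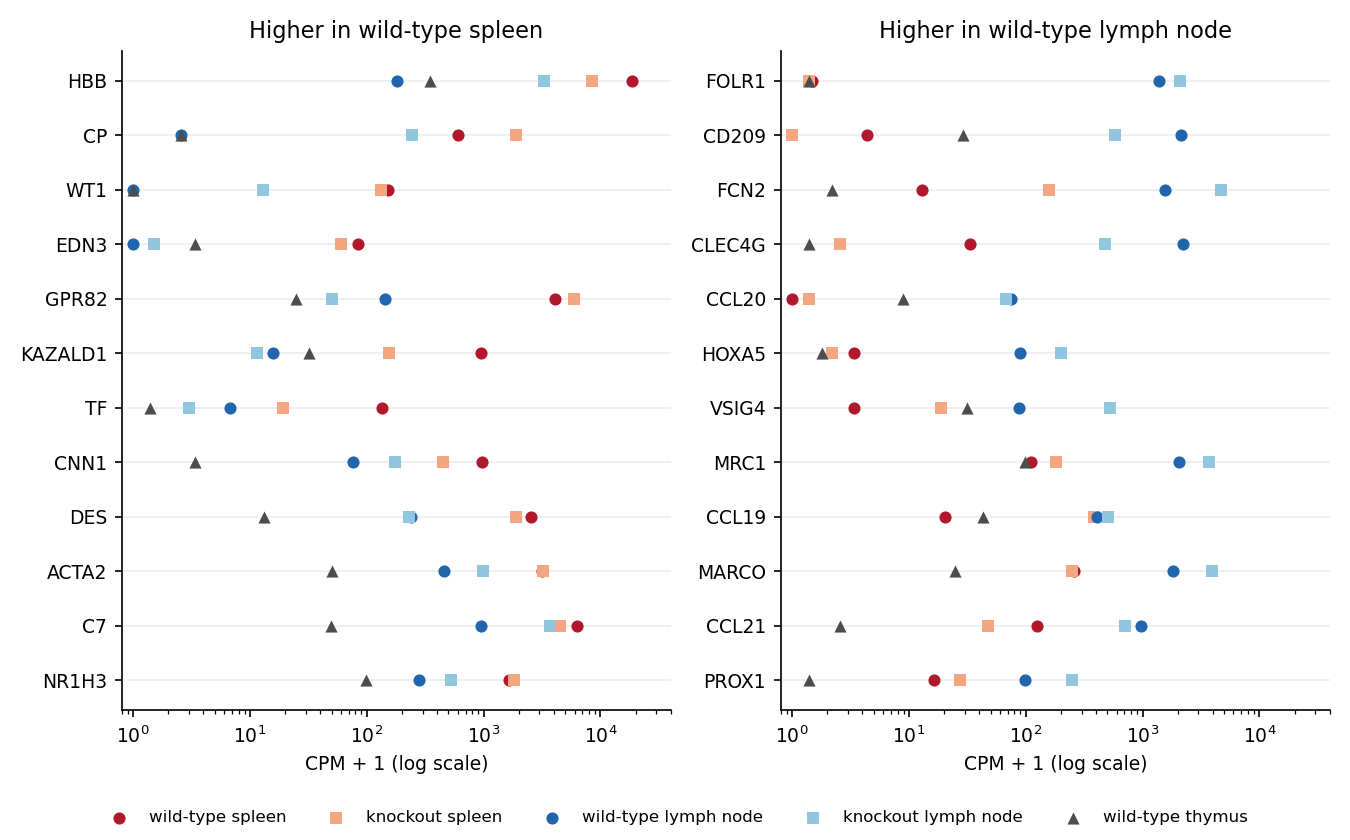
Level of 12 genes higher in wild-type spleen (left) and 12 higher in wild-type lymph node (right) in 5 libraries, as CPM + 1 on a log scale, 1 point a library; a point at 1 stands for 0 fragments. For DES, FOLR1 and MRC1 the knockout libraries lie within 2-fold of the wild-type library of the same organ, whereas HBB in knockout lymph node (3277 CPM) and CCL19 in knockout spleen (383 CPM) do not.

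Ribosomal protein, respiratory chain and antigen presentation genes gave few calls. Among 39 measured ribosomal protein genes 1 was called, RPS16 (2.10-fold lower, -1.07), yet all 39 had log2 ratios below 0, from -1.07 to -0.26 with a median of -0.74, against -0.12 over all measured genes. EEF1A1, the elongation factor and the gene with the most fragments in both libraries, went the same way at 43228 and 57652 CPM (-0.42). Of 33 respiratory chain genes 1 was called, COX7A1 (-1.03), and the median was -0.08. Of 20 interferon response genes 3 were higher, led by the antiviral MX2 (3.17-fold, 2.72 to 3.72), and 3 lower, with a median of 0.06. Genes of antigen presentation by class II were called once in 8, for SLA-DOB (3.66-fold lower, 2.66 to 5.10), a regulator of peptide loading in B cells, while SLA-DRA stood at 6063 and 7253 CPM (-0.26). Of 14 class I and proteasome genes 1 was called, B2M, on only 9 and 20 fragments. B2M thus stood at 4.32 and 10.4 CPM, far below the class I gene SLA-1 at 3234 and 3967 CPM. Whether the B2M estimate is complete was not tested.

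Markers of tissue that could have been taken along with a piece gave mixed values. For pancreas 1 of 9 listed genes was measured, the elastase CELA1 (35 and 5 fragments). Of 8 listed liver genes 2 were measured and both were higher in spleen: ALB, the serum albumin, had 10 and 0 fragments, and APOA1, a lipoprotein of plasma, 728 and 228 (2.94-fold higher, 2.53 to 3.43). Of 14 measured adipocyte genes 2 were higher and 8 lower in spleen (median -1.08), and the listed members summed to 2317 and 2412 CPM. The fat-cell genes ADIPOQ (5 and 17 fragments) and PLIN1 (3 and 16), the coat protein of lipid droplets, had few fragments. The lipid enzymes SCD (363 and 920) and LIPE (99 and 199) had more and were lower in spleen. Their part in the differences above was not tested.

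The knockout spleen and knockout lymph node showed part of the same organ contrast. Listed B-cell genes summed there to 207 and 188 CPM, against 1221 and 3563 in the wild-type pair, and listed T-cell genes to 878 and 1446 CPM, against 1972 and 6566. CD3D was not lower in knockout spleen (75.9 CPM) than in wild-type spleen (69.6 CPM). Over the 2672 genes measured in the wild-type pair, 302 were higher in knockout spleen (11.3%) and 442 lower (16.5%). Of the 309 genes higher in wild-type spleen 155 were also higher in the knockout pair, 119 were not called and 35 were lower. The shared genes are thus 155 of 309 on the wild-type side and 155 of 302 on the knockout side. Of the 327 lower genes 197 were also lower, out of 442, while 110 were not called and 20 were higher. No value of the difference between the pairs was tested, with 1 library for each organ and genotype.

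Groups kept their organ side to different degrees. Of 12 smooth muscle genes 8 were higher in knockout spleen, all of them among the 11 of the wild-type pair, and DES was at 3.03 against 3.41. SMTN was not called (-0.08), and RGS5 was lower in knockout spleen, at 137 and 223 fragments. All 4 lymphatic endothelial genes were lower again (median -3.82). Of 20 T-cell genes lower in wild-type spleen 8 were lower in the knockout pair, among them IL7R (-4.62) and CD4 (-3.14), and of 7 B-cell genes only MS4A1 was, on 2 and 6 fragments. CD3G, by contrast, had 116 fragments in knockout spleen and 8 in knockout lymph node (3.25). MSR1 turned from 1.96 to -2.49, and CCL19 from -4.34 to -0.41, with 963 and 1026 fragments in the knockout pair. Adipocyte genes widened the contrast on the lymph node side: ADIPOQ had 4 fragments in knockout spleen and 4550 in knockout lymph node. HBB differed less, at 8548 and 3277 CPM (1.38).

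The genotypes also differed in a Y-linked gene. EIF1AY had 0 fragments in the wild-type spleen and lymph node, against 194 and 209 in the knockout pair (77.1 and 103 CPM). With 3 fragments as the limit that a count of 0 allows, the wild-type levels were at most 1.44 and 1.56 CPM. The wild-type organs are thus alike in this gene. The sex of the animals may differ between the genotypes, and sex and genotype cannot be told apart wherever the knockout pair is set beside the wild-type pair.

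**Figure D4:**
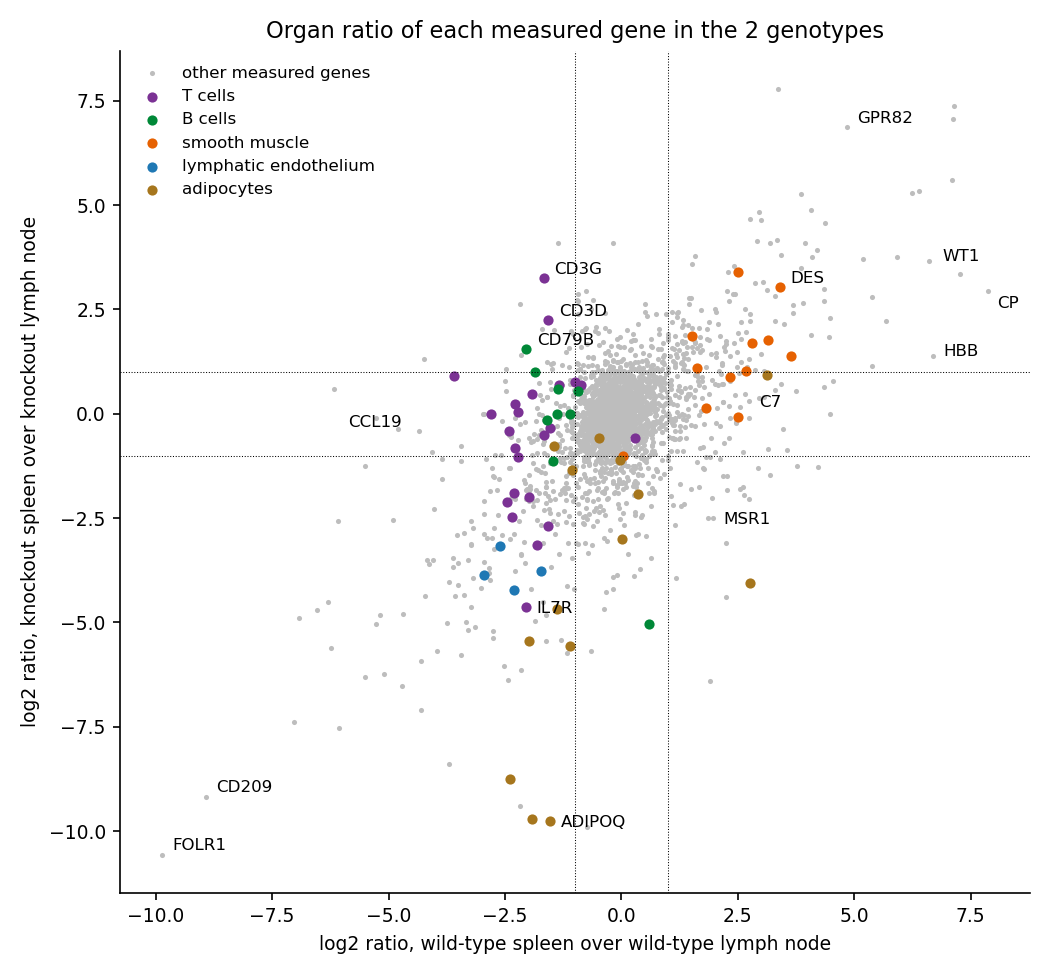
Log2 ratio of spleen over lymph node in the wild-type pair (horizontal) and the knockout pair (vertical) for the 2672 measured genes, with 5 gene lists coloured and dotted lines at 1 and -1. Smooth muscle lies mostly at the upper right, lymphatic endothelium at the lower left, T-cell and B-cell genes spread vertically on the left, and ADIPOQ lies low at -9.76 in the knockout pair.

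The deposited FPKM values, made separately in each tissue table, gave a second reading. Of the 309 genes higher in spleen by fragments 300 were called higher by FPKM, and 3 lower. Of the 327 lower genes 271 were called lower, and 1 higher. FPKM per deposited count agreed within 1.5-fold between the 2 tissue tables for 2613 genes and differed for 46, of which 11 were called higher and 23 lower, and it had no value in a table for 13. For those 46 the 2 tables relate counts to FPKM differently, so the fragment ratio is uncertain. OAS2, an interferon-induced enzyme, was 6.10-fold lower in spleen by fragments (-2.58) and 0.33 by FPKM. The tetraspanin CD82 stood at 7.15 by fragments and 2.67 by FPKM, and the mitochondrial IDH2 stood at -6.54 and -2.75. The nuclear receptor AHR (-5.50 and -3.25) and the collagen COL5A1 (-4.30 and -2.11) differed in the same way. CD200R1, DERL1, MMP3, NPY2R and WNT4 had 0 fragments in 1 of the organs and a differing or missing FPKM per count, and DERL1 was listed at 0 in the thymus libraries too.

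**Figure D5:**
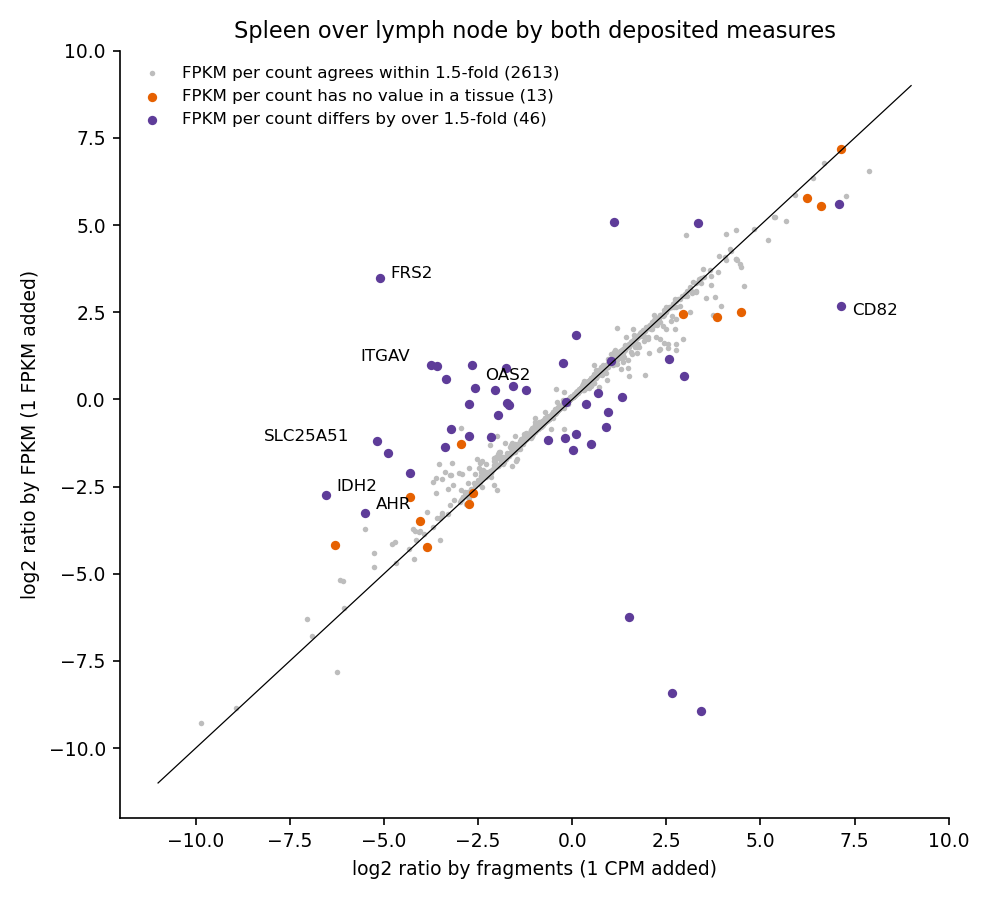
Log2 ratio of wild-type spleen over lymph node by fragments (horizontal, 1 CPM added) and by the deposited FPKM (vertical, 1 FPKM added) for the 2672 measured genes; the line marks equal values. Grey genes have FPKM per count within 1.5-fold between the tissue tables and follow the line; the 46 that differ, such as OAS2, IDH2 and CD82, leave it.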

How the data were processed

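Total RNA from the wild-type spleen and lymph node (1 library each) was compared; the other 4 libraries served as reference values. Per the labels' protocols, RNA was extracted with RNeasy columns and libraries were made with a stranded TruSeq total RNA kit. FastQC 0.11.9, Trimmomatic 0.39, STAR 2.7.9a, Cufflinks 2.2.1 and Sscrofa11.1 were used, per the submitters' processing notes; the notes do not state their order, settings, annotation or treatment of shared fragments, so near-identical or overlapping genes are uncertain. The deposited tables, 2 per tissue, list 4122 genes.

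The deposited count tables hold estimated counts multiplied by 1 factor per library, read from the values: with the most frequent nonzero value of a library as its step (0.925 to 1.08), 95.0 to 99.2% were whole multiples of it within 0.02. Rounded fragments were scaled to a total of 1000000 (CPM). FPKM values were deposited by the authors, per tissue table, and served as a check. The unit of the count tables was settled after the design, which assumed whole fragments; the calculation was kept.

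The libraries, 37 gene lists and 10 families were chosen with earlier results of these data known, the families after the values were seen. Named genes are the first 2 measured members of each list, up to 4 called members with the largest ratios and at least 20 fragments, the 15 highest and 15 lowest genes with at least 50 fragments, the 5 most abundant genes of each library, and RAG1 and RAG2. Other genes were named after their values were seen, from the lists and families and in checks of the organ labels. Some genes that the rule named are left out of the text. Of the symbols 3721 matched a current RefSeq symbol of Sscrofa11.1, 226 an older name and 175 none; coordinates are those of that annotation, from 1. No test was made, with 1 library a side. Alternatives were edgeR 4.0.16 TMM factors, DESeq2 1.42.0 size factors, FPKM, totals without the 10 most abundant genes, centring, pseudocounts of 0.1 and 5 CPM, other minimums, a log2 threshold of 2, the counting interval and the deposited values undivided; agreement of FPKM per count and of the FPKM call was added after seeing the data. Python 3.11.15, numpy 2.4.6, pandas 2.3.3, scipy 1.17.1, matplotlib 3.10.9 and R 4.3.3 were used.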

Additional observations from a re-analysis of the deposited data

Results flagged for a closer look

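Over all measured genes 35 were higher in wild-type and lower in knockout spleen, and 20 the other way round. Among the genes that the naming rule gives, 8 had an organ ratio called in opposite directions in the wild-type and the knockout pair; the difference between the pairs was not tested, with 1 library for each organ and genotype. CD3D had a log2 ratio of -1.57 in the wild-type pair and 2.24 in the knockout pair (191 fragments in knockout spleen, 31 in knockout lymph node). CD79B went from -2.04 to 1.54 on 12 and 2 knockout fragments. The interferon-induced chemokine CXCL9 went from -1.44 to 2.01, with 675 and 133 knockout fragments. GATA1 went from -1.09 to 1.99 (42 and 7) and the matrix protease MMP9 from -4.23 to 1.32 (63 and 19). In the other direction, HP went from 2.26 to -1.82 (44 and 130), the stem cell factor receptor KIT from 1.62 to -1.16 (609 and 1094) and ALB from 2.54 to -1.80, on 0 and 5 knockout fragments.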

How the results depend on the processing

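With 1 library a side, no library could be left out. No paired analysis was possible because each organ and genotype has 1 library and the labels give no replicate numbers. Of the recomputed group counts 141 stayed within 1.5 times the reported one and 9 did not. At a log2 threshold of 2 there were 139 genes higher and 137 lower, and the counts fell to 5 iron genes higher, 3 macrophage genes higher and 3 lower, 11 T-cell genes lower and 1 B-cell gene lower. With 50 fragments in either library, or 10 in both, 4 dendritic cell genes were lower, since fewer were measured. Of the other recomputed values 2061 were rated the same, 199 moved and 5 turned sign. Medians turned sign with fewer genes. That of the 4 measured neutrophil genes, 1.29 with 3 higher and 1 lower, went to -1.39 with 50 fragments in either library. The adrenergic, neuropeptide Y and endothelin family went from 1.52 to -0.96 with 10 in both. Claudins went from -1.04 to 0.08 with 50 in either or with gene models that agree. OAS2 turned to 0.33 by FPKM; its FPKM per count differs between the tables. TMM factors, DESeq2 size factors and centring each raised the median over all measured genes by 0.12, so calls within that distance of the threshold, such as SIGLEC-1 (-1.01), depend on the scaling. Fewer than 4 fragments in a library leave a fold open over a wide interval, as for FOLR1.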

Other observations

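Members of further gene families are given here as values, with the families chosen after their values were seen. Over all measured genes 11.6% were higher and 12.2% lower in spleen. Whether a family departs from these shares was not tested. The median log2 ratio was -0.48 for the Toll-like receptors and -0.43 for the interleukin receptors. Of 10 Toll-like receptors 2 were higher in spleen, TLR8 (2653 and 410 fragments, 2.57), a sensor of single-stranded RNA, and TLR4 (1.42), and 2 were lower, TLR10 (-1.34) and the flagellin receptor TLR5 (-1.13). Of 10 interleukin receptors IL12RB2, a chain of the IL-12 receptor, was higher (126 and 45 fragments, 1.33) and 3 were lower, among them IL27RA (433 and 1466, -1.87). AQP3, a channel for water and glycerol, was the 1 aquaporin measured (1230 and 176 fragments, 2.67). Of 4 ATP-binding cassette transporters 2 were lower in spleen, the drug exporters ABCB1 (138 and 357, -1.47) and ABCG2 (119 and 262, -1.24). Among claudins, CLDN10 had 131 and 1 fragments and CLDN5, of endothelial junctions, 97 and 407.

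The ectonucleotidase ENTPD1, which breaks down extracellular ATP, had 1769 fragments in spleen and 280 in lymph node (5.83-fold higher, 5.13 to 6.63). DPP4, a peptidase that also binds adenosine deaminase, was 2.39-fold lower in spleen (1.89 to 3.03). ART4, the carrier of a red-cell blood group antigen, had 1048 and 114 fragments (8.48-fold higher, 6.98 to 10.4), and in the knockout pair 412 and 250. The endothelial protein C receptor PROCR had 80 and 1336 (18.1-fold lower, 14.4 to 23), and 55 and 562 in the knockout pair.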
